A study of Mus musculus with 18 samples.

Results

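The genes described here encode subunits of the ATP-dependent chromatin remodelling enzymes, followed in the dental epithelium of mouse molars with and without HMGN1 and HMGN2. Members were taken by symbol: the Smarca to Smarce genes, the Chd genes with a number and no letter after it, the lettered Arid genes and the Ino80 genes, plus Bptf, Brd7, Brd9, Pbrm1, Hells and Atrx. Chd1l is thereby counted among the partners described further on. The rule used no measured value, and it found 42 genes of 32532 symbols at E17, 8 of 4841 at P0 and 42 of 19450 at P5. At P0 the values at hand reach over chromosomes 1 and 10 and into 11, which let 8 members be read, and the others were not analysed here at that stage. The study compared wild type with a double knockout labelled Hmgn1-/-; Hmgn2-/- at embryonic day 17 (E17), postnatal day 0 (P0) and postnatal day 5 (P5), with 3 libraries in each of 6 groups, 18 in all. Tooth germs were digested with dispase to lift the epithelium off the mesenchyme, and both genotypes were handled this way. The labels give no strain, do not describe the alleles and are silent on pooling of animals. Nor do they tie each library to an animal of its own, and the p-values therefore speak of the spread between these libraries, part of which may be technical.

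Remodelling enzymes use ATP to slide, evict or exchange nucleosomes, and each has an SNF2-type ATPase at its heart. The SWI/SNF family (BAF and PBAF complexes) opens enhancers and promoters, ISWI complexes space nucleosomes, CHD4 and CHD3 drive the NuRD complex that couples remodelling to histone deacetylation, and the INO80 complex exchanges histone variants and helps replication and repair. HMGN1 and HMGN2 sit on the nucleosome core itself, and in purified systems HMGN proteins have been found to restrain several of these enzymes. Ameloblasts, the enamel-forming cells of this epithelium, leave the cell cycle, polarise and secrete enamel matrix over the days sampled. As a check of the label, the ATPase genes Smarca4 and Chd4 were present in every library at E17 and P5, at 15.6 RPKM or more. RPKM is reads relative to transcript length and to the mapped reads of the library, summed here over the transcripts of a gene. The match to the label is not complete, because the rule also takes 7 genes of the ARID3, ARID4 and ARID5 families. Their products share the ARID DNA-binding domain with ARID1A and ARID1B but are not known as subunits of these enzymes, so they are described as a group of their own.

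The start sites of 6 members are shown as a selection. Of these, 5 are among the 15 members that fell at P5, and Hells is among the 5 that rose. Each window runs from 250 bases before to 50 after the start in RefSeq on GRCm38.p6, the mm10 build, and is written 5′ to 3′ on the strand of the gene. Capitals mark every match, on either strand and with overlaps allowed, of 8 strings of letters. These were the GC box GGGCGG, the CCAAT box CCAAT, the ETS factor core CCGGAAG, the NRF1 core GCATGCGC, the TATA box TATAAA, the E2F sites TTTGGCGC and TTTCCCGC, and the YY1 site AAGATGGC. Smarca4, Smarca5, Smarcb1 and Smarcc1 are the only members whose windows hold GCATGCGC, so the selection contains all of them. The other fallen members with a window, such as Chd4, Brd7 and Smarcd2, do not hold it.
Smarca4, chr9:21615919-21616218, plus strand: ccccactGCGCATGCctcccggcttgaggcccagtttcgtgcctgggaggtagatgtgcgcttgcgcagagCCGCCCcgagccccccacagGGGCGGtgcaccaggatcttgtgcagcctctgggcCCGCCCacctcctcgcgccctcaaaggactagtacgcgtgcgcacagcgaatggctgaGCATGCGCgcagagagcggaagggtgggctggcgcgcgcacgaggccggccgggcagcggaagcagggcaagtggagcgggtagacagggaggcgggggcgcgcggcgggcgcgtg
Smarca5, chr8:80739410-80739709, minus strand: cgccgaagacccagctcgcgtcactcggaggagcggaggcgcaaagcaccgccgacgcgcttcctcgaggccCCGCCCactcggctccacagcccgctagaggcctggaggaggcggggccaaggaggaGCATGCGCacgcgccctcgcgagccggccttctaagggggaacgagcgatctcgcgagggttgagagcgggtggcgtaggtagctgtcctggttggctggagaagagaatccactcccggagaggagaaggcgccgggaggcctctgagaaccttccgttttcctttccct
Smarcb1, chr10:75921565-75921864, minus strand: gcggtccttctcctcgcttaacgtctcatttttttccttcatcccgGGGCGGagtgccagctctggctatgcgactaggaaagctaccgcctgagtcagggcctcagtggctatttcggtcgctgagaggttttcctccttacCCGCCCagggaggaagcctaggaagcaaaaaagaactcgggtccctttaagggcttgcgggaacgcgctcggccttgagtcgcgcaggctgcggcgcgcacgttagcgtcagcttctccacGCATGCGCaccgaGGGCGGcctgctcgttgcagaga
Smarcc1, chr9:110131774-110132073, plus strand: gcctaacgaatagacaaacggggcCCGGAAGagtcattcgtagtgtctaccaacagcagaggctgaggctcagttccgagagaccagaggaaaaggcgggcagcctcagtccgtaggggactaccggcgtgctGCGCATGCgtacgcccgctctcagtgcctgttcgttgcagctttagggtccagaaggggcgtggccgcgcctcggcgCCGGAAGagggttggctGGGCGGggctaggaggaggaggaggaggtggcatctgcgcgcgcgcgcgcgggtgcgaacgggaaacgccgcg
Chd4, chr6:125095731-125096030, plus strand: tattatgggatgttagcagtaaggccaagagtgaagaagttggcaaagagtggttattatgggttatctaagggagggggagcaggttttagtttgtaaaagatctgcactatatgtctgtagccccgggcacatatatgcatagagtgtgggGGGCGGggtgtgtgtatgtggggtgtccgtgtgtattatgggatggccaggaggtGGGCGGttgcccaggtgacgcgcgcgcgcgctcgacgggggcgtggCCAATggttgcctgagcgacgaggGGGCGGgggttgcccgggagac
Hells, chr19:38930740-38931039, plus strand: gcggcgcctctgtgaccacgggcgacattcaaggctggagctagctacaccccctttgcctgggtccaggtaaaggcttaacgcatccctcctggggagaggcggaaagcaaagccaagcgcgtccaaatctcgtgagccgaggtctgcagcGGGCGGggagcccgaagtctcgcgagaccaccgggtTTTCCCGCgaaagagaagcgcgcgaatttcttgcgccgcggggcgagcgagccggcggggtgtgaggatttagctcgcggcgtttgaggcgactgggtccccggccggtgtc

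RefSeq windows were found for 33 of the 42 members. GGGCGG was present in 28 of the 33 and in 35.7% of all 32851 promoter windows of the same length. CCAAT was present in 11 of the 33, against 37.4% of all windows. CCGGAAG was in 6 (8.9% of all), GCATGCGC in 4 (2.7%), TTTCCCGC in 3 (1.1%), AAGATGGC in 3 (2.7%), TATAAA in 2 (13.6%) and TTTGGCGC in 0 (0.5%). These are matches of letters only, and binding was not measured.

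The labels were checked on the targeted genes. For Hmgn2 at E17, wild type gave 354, 344 and 320.0 RPKM and the double knockout 0.839, 0.953 and 0.975. The P5 libraries gave 183, 166 and 166 RPKM against 9.05, 5.44 and 10.4, so the loss was plain at both stages. Hmgn1 was at 133, 129 and 123 RPKM in wild type at E17 against 86.2, 92.9 and 92.7, and at P5 at 187, 190 and 179 against 72.6, 69.8 and 72.2. Its mean in the double knockout was thus 70.6% of wild type at E17 and 38.6% at P5, so the RNA level of Hmgn1 does not show the loss that the label Hmgn1-/- names, and "double knockout" is used below as the label. Which part of the gene the allele lacks is not given in the sources used here. Neither gene was analysed here at P0. Alignments per library numbered 65953495 to 99967427 (E17), 74845352 to 108920337 (P0) and 39209676 to 72660832 (P5). Fold changes below are double knockout over wild type, ± standard error, in log2(RPKM + 1). They come from limma fits with Benjamini-Hochberg adjustment over all genes tested, and n = 3 libraries a group throughout. The genotypes differed by a general shift, with a median log2 fold change among the genes tested of 0.25 (E17), -0.05 (P0) and -0.25 (P5). Each result is therefore given a second time with the upper quartiles of the libraries made equal ("scaled"), which brought those medians to 0, -0.04 and -0.06. A gene is said to have risen or fallen only where adjusted p was under 0.05 in the same direction both ways. Stages were normalized separately and their tables name transcripts differently, so RPKM levels are compared within a stage only.

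More remodelling genes fell than rose at P5, as was so among all genes tested, and few were called at E17 and P0. At P5, 15 of the 39 members tested fell (38.5%), against 30.8% of all 11423 genes tested, and 5 rose (12.8%), against 7.35% of all genes. At E17, 1 of 40 members rose (2.5%, against 6.61% of 13728 genes) and 0 fell (against 3.07%). Of the 8 members tested at P0, 1 rose (against 16.7% of 2062 genes) and 1 fell (against 22.8%). The members had a median log2 fold change of 0.24 at E17 (scaled -0.01), 0.02 at P0 (scaled 0.04) and -0.23 at P5 (scaled -0.03), each close to the median of all genes. Arid3c and Chd5 at E17 and P5, and Arid5a at P5, were too low to test. Without the ARID3, ARID4 and ARID5 genes, a subset chosen after the values were seen, 14 of 34 members fell and 4 rose at P5, and at P0 0 of 5 changed.

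**Figure D1:**
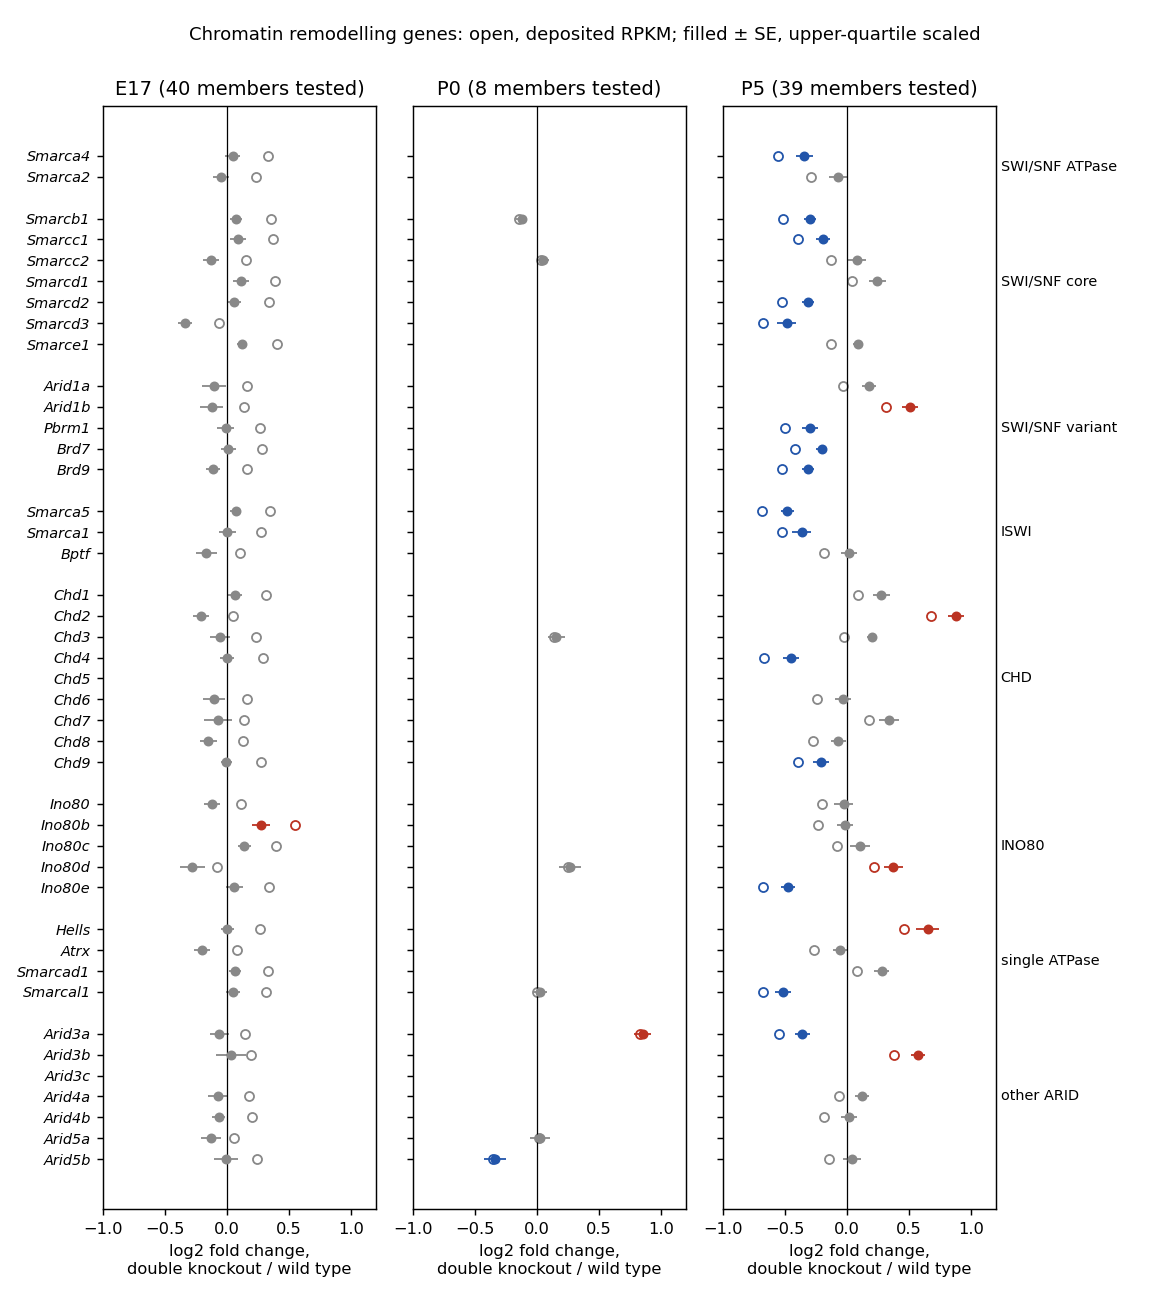
Log2 fold change (double knockout over wild type) of each remodelling gene at E17, P0 and P5, by family. Open circles are deposited RPKM, filled circles are scaled values with their standard error, and red and blue mark genes that rose or fell in both. At E17 the open circles lie to the right and the filled ones around 0, with only Ino80b coloured, while at P5 15 genes are blue and 5 red.

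The deposited values alone gave another picture at E17. There 22 of 40 members had an adjusted p under 0.05 and were higher in the double knockout, against 56.3% of all genes tested. In 20 of the 40 the scaled difference had the opposite sign to the deposited one, and so did that of 9 of 39 at P5, none of them called. As deposited, the groups did not overlap and the double knockout was higher in 22 of 40 members at E17 (60.9% of all genes), 3 of 8 at P0 (21.0%) and 5 of 39 at P5 (8.66%). It was lower without overlap in 0 (3.83% of all genes), 1 (29.3%) and 25 (61.8%) of them. With the deposited values alone, 20 of 39 members at P5 had an adjusted p under 0.05 and were lower, against 58.2% of all genes. The summed RPKM of all members was 678.9, 724.6 and 712.6 in wild type at E17 and 792.1, 901.1 and 869.3 in the double knockout. As a share of all RPKM of the library this was 0.145%, 0.166% and 0.165% against 0.162%, 0.175% and 0.168%, and the groups overlapped. At P5 the sum was 573.6, 518.2 and 512.8 against 439.6, 440.7 and 443.9 RPKM, or 0.128%, 0.116% and 0.123% against 0.0862%, 0.0880% and 0.0925% of all RPKM, and there the double knockout libraries all lay below the wild-type ones. All RPKM summed to 417697.4 to 448894.3 in wild type and 479652.5 to 510007.4 in the double knockout at P5. That total was higher where the median gene was lower, so the share does not remove the general shift. The members' median scaled change was -0.03, against -0.06 for all genes.

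In wild type at E17 the most abundant members were Chd3 (77.6 ± 4.78 RPKM, SD), Smarce1 (49.1 ± 1.19), Chd4 (47.2 ± 2.73) and Smarca2 (39.3 ± 3.78). Smarce1 and Chd4 did not differ beyond their spread. At P5 Chd4 (49.2 ± 5.65) and Chd3 (47.3 ± 2.49) were alike within their spread and stood first, ahead of Smarce1 (41.7 ± 1.85) and Smarcb1 (30.6 ± 1.51). At both stages the lowest members were Arid3c, listed at 0 in all wild-type libraries, and Chd5 (0.150 ± 0.00744 RPKM at E17 and 0.0515 ± 0.0351 at P5), a CHD gene best known from neurons.

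Of the alternative SWI/SNF ATPases, Smarca4 was called at P5 and Smarca2 was not, but both were lower in every double knockout library and their ratio overlapped between genotypes. Smarca4 (chromosome 9, 21616169 to 21704230) encodes BRG1, one of the alternative motors of the complex, and stood at 28.0, 21.5 and 23.0 RPKM in wild type against 16.0, 16.4 and 15.6 in the double knockout. The groups did not overlap, the wild-type libraries spread more widely than the knockout ones, and the gene fell (-0.56 ± 0.09, adjusted p = 0.000313, scaled -0.34). Smarca2, which encodes the alternative motor BRM, was at 18.8, 21.9 and 18.7 RPKM against 15.8, 16.3 and 15.8. Its double knockout libraries were also the lower ones, but after scaling the difference did not pass (-0.29 ± 0.07, adjusted p = 0.00469, scaled -0.08 with adjusted p = 0.415). At E17 Smarca4 was at 25.9, 29.6 and 27.8 RPKM in wild type against 32.9, 37.0 and 35.4 in the double knockout, higher in each knockout library as deposited but not after scaling (0.33 ± 0.07, adjusted p = 0.00653, scaled 0.04 with adjusted p = 0.638). In whole tissue such as this, fewer cells of a type and less RNA per cell cannot be told apart.

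Among the 7 genes for the SWI/SNF core, 4 fell at P5 and 0 rose, against 30.8% and 7.35% of all genes tested. Smarcb1, which encodes the BAF47 subunit that contacts the nucleosome (chromosome 10, 75896769 to 75921617), was at 31.9, 29.0 and 30.9 RPKM in wild type against 21.0, 21.1 and 21.2 in the double knockout. Its knockout libraries were nearly equal to each other and all below wild type (-0.52 ± 0.06, adjusted p = 4.8e-05, scaled -0.30), and the call was lost with the most abundant transcript in place of the sum (adjusted p = 0.0643). Smarcc1, for the scaffold subunit BAF155 (chromosome 9, 110117708 to 110240178), stood at 13.7, 12.1 and 12.2 RPKM against 9.28, 9.73 and 9.08. It also fell without overlap of the groups (-0.40 ± 0.07, adjusted p = 0.000599, scaled -0.19), a small change once scaled, and the call was lost in 6 of the alternative settings, among them leaving out wild-type library 1 or 3 or double knockout library 3 (adjusted p = 0.0511, 0.052 and 0.0599).

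Smarcd2 and Smarcd3 encode alternative BAF60 subunits, and both fell at P5. Smarcd2 (chromosome 11, 106263179 to 106272972) read 23.1, 21.2 and 19.9 RPKM in wild type against 14.6, 14.4 and 14.7 in the double knockout, with no overlap (-0.53 ± 0.07, adjusted p = 8.68e-05, scaled -0.31). Smarcd3 (chromosome 5, 24590818 to 24624411), a form known from heart and muscle, read 7.97, 8.89 and 8.31 RPKM against 5.01, 5.05 and 4.51, again without overlap (-0.68 ± 0.07, adjusted p = 3.69e-05, scaled -0.49). In the GENCODE annotation 48.2% of the exonic bases of Smarcd3 lie under other genes on the opposite strand, chiefly Chpf2. Whether strand was used in counting is not given in the sources used here, so the values of Smarcd3 are uncertain. That share counts all annotated exons, while the P5 value is of 1 transcript, whose own overlap was not measured. Chpf2 itself rose at P5 (0.22 ± 0.08, adjusted p = 0.0375, scaled 0.43), opposite to Smarcd3. At E17 it had the same direction as the scaled change of Smarcd3 (Chpf2 -0.15 ± 0.08, adjusted p = 0.126, scaled -0.42 with adjusted p = 0.00453). The third form, Smarcd1, was at 13.3, 10.8 and 12.0 RPKM against 12.7, 11.3 and 13.0 and overlapped between genotypes. Only its scaled difference passed, upward (0.04 ± 0.08, adjusted p = 0.707, scaled 0.25 with adjusted p = 0.0197). Of its exonic bases, 12.7% lie under predicted genes on the opposite strand. Smarcc2 (the BAF170 scaffold, -0.13, scaled 0.08) and Smarce1 (the DNA-binding BAF57, -0.13, scaled 0.09) passed in neither scaling. At E17 5 of the 7 core genes were higher in all double knockout libraries, as were 60.9% of all genes tested, and the scaled changes lay between -0.34 (Smarcd3) and 0.12 (Smarce1).

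The genes that set apart BAF, PBAF and the BRD9-containing form moved in both directions at P5, 3 down and 1 up of 5. Of all genes tested, 30.8% fell and 7.35% rose. Pbrm1 encodes the multi-bromodomain subunit of PBAF (chromosome 14, 31019138 to 31121592) and was at 10.4, 9.25 and 9.43 RPKM in wild type against 6.50, 7.10 and 6.15 in the double knockout. It fell, with every knockout library below wild type (-0.50 ± 0.08, adjusted p = 0.000256, scaled -0.30), a call lost with the most abundant transcript (adjusted p = 0.242). Brd7, a bromodomain subunit of PBAF (chromosome 8, 88331039 to 88362194), stood at 20.6, 19.6 and 19.9 RPKM against 14.8, 14.6 and 14.9. It fell as well, and the libraries of each genotype lay close together (-0.42 ± 0.06, adjusted p = 0.000135, scaled -0.20). Brd9, the related subunit of non-canonical BAF (chromosome 13, 73937811 to 73960895), was at 15.7, 15.0 and 14.5 RPKM against 9.71, 10.3 and 10.5 and fell (-0.53 ± 0.06, adjusted p = 6.7e-05, scaled -0.32), and that call too was lost with the most abundant transcript (-0.30, adjusted p = 0.698).

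Arid1b went the other way. Arid1a and Arid1b encode alternative large subunits of canonical BAF that target it to DNA. Arid1b (chromosome 17, 4994332 to 5347656) was at 7.46, 6.49 and 6.29 RPKM in wild type against 8.99, 8.77 and 8.04 in the double knockout. All knockout libraries were above all wild-type ones, and the gene rose (0.31 ± 0.08, adjusted p = 0.00527, scaled 0.51). Arid1a was at 19.5, 16.4 and 16.8 RPKM against 17, 17.3 and 16.8, overlapping as deposited (-0.03 ± 0.07, adjusted p = 0.682, scaled 0.18 with adjusted p = 0.0236). Arid1a (chromosome 4, 133679008 to 133756769) lies on the same chromosome as the targeted Hmgn2 (133964738 to 133968650). At E17 none of these 5 genes passed in both scalings.

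Both ISWI motors fell at P5. Smarca5, which encodes SNF2H, the motor of most ISWI complexes (chromosome 8, 80698507 to 80739497), was at 14.6, 14.2 and 13.0 RPKM in wild type against 8.48, 8.25 and 8.15 in the double knockout. The gene fell, with the groups far apart relative to their spread (-0.69 ± 0.07, adjusted p = 2.06e-05, scaled -0.48). Smarca1, which encodes the alternative motor SNF2L (chromosome X, 47809368 to 47892974), was lower in level, at 3.13, 3.56 and 3.22 RPKM against 2.13, 1.84 and 2.01. It fell too, without overlap (-0.52 ± 0.08, adjusted p = 0.000268, scaled -0.36). Bptf, the large reader subunit that recruits the NURF form of ISWI to methylated histone H3, was at 9.32, 7.75 and 7.33 RPKM against 6.97, 7.11 and 6.95. Its knockout libraries were all below wild type, but the change did not pass and was near 0 once scaled (-0.18 ± 0.08, adjusted p = 0.0765, scaled 0.02 with adjusted p = 0.858). At E17 the log2 fold change was 0.35, scaled 0.07, for Smarca5, 0.27, scaled 0.00, for Smarca1 and 0.10, scaled -0.17, for Bptf.

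**Figure D2:**
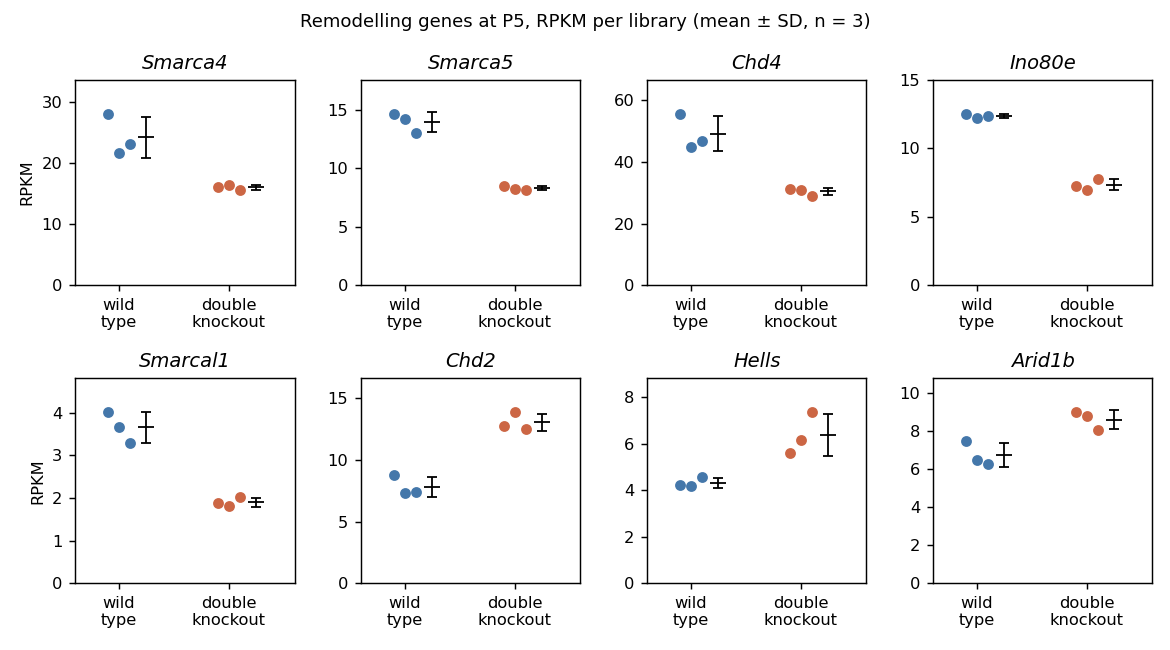
RPKM of 8 remodelling genes in each P5 library, as points, with the group mean ± SD (n = 3) as bars. Smarca4, Smarca5, Chd4, Ino80e and Smarcal1 are lower in all 3 double knockout libraries than in any wild-type library, and Chd2, Hells and Arid1b are higher.

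In the CHD family 2 of 8 genes tested fell and 1 rose at P5, against 30.8% and 7.35% of all genes tested. Chd4 (chromosome 6, 125095981 to 125130591), the main motor of NuRD, was at 55.6, 45.0 and 46.9 RPKM in wild type against 31.3, 31.0 and 29.0 in the double knockout. The first wild-type library was the highest, yet even the lowest wild-type library lay above every knockout library (-0.67 ± 0.08, adjusted p = 5.99e-05, scaled -0.45). At E17 Chd4 was at 44.3, 49.8 and 47.6 RPKM against 53.4, 61.4 and 58.9, higher in the knockout as deposited and level after scaling (0.29 ± 0.08, adjusted p = 0.0122, scaled 0.00 with adjusted p = 0.988). Chd9, a less studied CHD enzyme (chromosome 8, 90828352 to 91054516), read 6.01, 5.21 and 5.29 RPKM against 3.65, 4.06 and 4.12 at P5. It fell by a small margin once scaled (-0.40 ± 0.08, adjusted p = 0.00137, scaled -0.21), and the call was lost in 7 alternative settings, including leaving out wild-type library 1 or 3 or double knockout library 1 (adjusted p = 0.072, 0.0641 and 0.0812).

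Chd2 rose more than any other member at P5. The enzyme assembles nucleosomes at transcribed genes and deposits histone variant H3.3. Chd2 (chromosome 7, 73426638 to 73541830) was at 8.75, 7.27 and 7.36 RPKM in wild type against 12.7, 13.8 and 12.5 in the double knockout. The lowest knockout library lay well above the highest wild-type one (0.68 ± 0.08, adjusted p = 6.19e-05, scaled 0.88). Other genes cover 19.3% of all annotated exonic bases of Chd2 (1810026B05Rik on the same strand and a predicted gene on the other), and their part in the value was not tested. The overlap of the 1 transcript valued at P5 was not measured. No separate value of 1810026B05Rik was read at P5. At E17 Chd2 was at 7.52, 7.17 and 8.04 RPKM against 7.51, 8.23 and 7.83, with the groups overlapping (0.05 ± 0.07, adjusted p = 0.568, scaled -0.21), while 1810026B05Rik was at 14.6, 13.9 and 14.9 against 17.8, 24.2 and 21.5 RPKM.

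The other CHD genes did not pass in both scalings at P5. Chd3, the alternative NuRD motor, was at 50.2, 46.2 and 45.6 RPKM against 47.3, 46.4 and 46.2 (-0.02 ± 0.06, adjusted p = 0.758, scaled 0.20 with adjusted p = 0.00339). Chd1, a partner of elongating RNA polymerase, was at 5.89, 4.68 and 5.30 against 5.81, 5.59 and 5.58 (0.09 ± 0.08, adjusted p = 0.366, scaled 0.28 with adjusted p = 0.00953). Chd7, the gene mutated in CHARGE syndrome, was at 2.84, 2.26 and 2.25 against 2.86, 3.13 and 2.69 (0.18 ± 0.09, adjusted p = 0.108, scaled 0.34 with adjusted p = 0.00691). In these 3 genes the groups overlapped as deposited, and only the scaled difference passed, upward. Chd8, whose product binds beta-catenin, was at 13.7, 11.2 and 11.9 RPKM against 9.93, 9.88 and 9.89 (-0.28 ± 0.08, adjusted p = 0.00853, scaled -0.07 with adjusted p = 0.355). Chd8 and Chd6 (-0.24, scaled -0.03) showed the reverse, lower as deposited with no overlap but not after scaling.

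Of the 5 INO80 genes, 1 fell and 1 rose at P5 (against 30.8% and 7.35% of all genes tested), and neither was the motor. Ino80 itself, the ATPase, was at 3.93, 3.60 and 3.49 RPKM against 3.03, 2.73 and 3.46, a difference that did not pass (-0.20 ± 0.09, adjusted p = 0.0619, scaled -0.03). Ino80e, an accessory subunit (chromosome 7, 126850960 to 126862377), stood at 12.5, 12.2 and 12.4 RPKM in wild type against 7.23, 6.98 and 7.79 in the double knockout. Both groups were tight and far apart, and the gene fell (-0.68 ± 0.06, adjusted p = 1.98e-05, scaled -0.48). Of its exonic bases, 16.4% lie under Doc2a and Hirip3 on the opposite strand, and Hirip3 fell as well (-0.57 ± 0.08, adjusted p = 0.000186, scaled -0.40), so without strand the reads of these genes cannot be told apart. Ino80d (chromosome 1, 62958418 to 63114667), another accessory subunit, was at 2.22, 1.86 and 2.27 RPKM against 2.61, 2.72 and 2.52. It rose without overlap (0.22 ± 0.08, adjusted p = 0.0371, scaled 0.37), and the call was lost in 6 alternative settings, including leaving out wild-type library 2 (adjusted p = 0.144) or double knockout library 1, 2 or 3 (0.0792, 0.106 and 0.0622).

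Ino80b, which encodes the IES2 activator subunit, was the one member called at E17. It was at 15.5, 13.0 and 13.7 RPKM in wild type against 18.7, 23.3 and 21.0 in the double knockout, with no overlap (0.55 ± 0.09, adjusted p = 0.00253, scaled 0.27 with adjusted p = 0.0457). The scaled p lay just under the threshold, and 9 alternative settings lost the call, among them leaving out wild-type library 2 or 3 or double knockout library 1, 2 or 3 (adjusted p = 0.109, 0.133, 0.0557, 0.118 and 0.118). At P5 Ino80b was at 22.3, 22.6 and 20.0 RPKM against 19.6, 16.6 and 18.7 and did not pass after scaling (-0.23 ± 0.08, adjusted p = 0.0192, scaled -0.02 with adjusted p = 0.843). Ino80c, a small accessory subunit, did not pass in both scalings at either stage (0.39, scaled 0.14, at E17 and -0.08, scaled 0.10, at P5).

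Hells and Smarcal1, 2 ATPases that act without a large complex, moved apart at P5. Hells encodes LSH, which with CDCA7 opens heterochromatin so that DNA methylation can be kept through replication (chromosome 19, 38930915 to 38971051). It was at 4.20, 4.20 and 4.56 RPKM in wild type against 5.60, 6.16 and 7.34 in the double knockout, where the third library was the highest. All knockout libraries exceeded wild type, and the gene rose (0.46 ± 0.09, adjusted p = 0.00124, scaled 0.65). Hells is known as a gene of proliferating cells. Of 8 markers of cycling cells, 7 fell at P5, against 30.8% of all genes tested. Their summed RPKM was 74.6 to 82.0 in wild type and 44.4 to 45.1 in the double knockout. Their part in the Hells value was not tested. Cdca7, the partner of LSH, fell at P5 (log2 fold change -0.85, scaled -0.70). At E17 Hells was at 7.36, 6.95 and 7.31 RPKM against 8.47, 9.14 and 8.89, a shift that left nothing after scaling (0.26 ± 0.06, adjusted p = 0.00827, scaled 0.00 with adjusted p = 0.979). The cycling markers summed to 359.5 to 384.2 against 479.5 to 517.9 RPKM there, as deposited. Of these 8 markers, 4 rose at E17, against 6.61% of all genes tested.

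Smarcal1 (chromosome 1, 72583251 to 72633134), an annealing helicase that repairs stalled replication forks, read 4.01, 3.66 and 3.29 RPKM in wild type against 1.87, 1.81 and 2.02 in the double knockout at P5. No knockout library came near the wild-type range (-0.68 ± 0.08, adjusted p = 7.44e-05, scaled -0.52), whereas at P0 its values were 11.0, 9.89 and 12.0 against 11.4, 10.2 and 11.3 RPKM and overlapped (0.00 ± 0.09, adjusted p = 0.978, scaled 0.02). Atrx, the X-linked ATPase that with DAXX places H3.3 in heterochromatin, was at 13.1, 11.8 and 11.5 RPKM in wild type against 9.26, 10.1 and 10.5 in the double knockout at P5. The knockout libraries were the lower ones, but not beyond the general shift (-0.26 ± 0.07, adjusted p = 0.00904, scaled -0.06 with adjusted p = 0.444). At E17 Atrx was at 25.6, 27.5 and 28.9 against 26.3, 30.7 and 30.0 RPKM with overlapping groups (0.08 ± 0.08, adjusted p = 0.403, scaled -0.20 with adjusted p = 0.0697). Smarcad1, which helps silent chromatin through replication, was 0.33, scaled 0.06, at E17 and 0.08, scaled 0.28, at P5, and passed in both scalings at neither.

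Among the ARID3, ARID4 and ARID5 genes, Arid3a was called at P0 and P5, in opposite directions. Arid3a encodes a transcription factor that is known from B cells (chromosome 10, 79927043 to 79955018). At P0 it was at 3.74, 4.31 and 4.43 RPKM in wild type against 8.23, 8.16 and 8.14 in the double knockout. The knockout libraries were nearly identical and all above wild type, and the gene rose (0.83 ± 0.09, adjusted p = 1.75e-05, scaled 0.85). At P5 the order was reversed, with 7.00, 6.64 and 6.13 RPKM in wild type against 4.32, 4.24 and 3.99 in the double knockout, and the gene fell (-0.55 ± 0.07, adjusted p = 0.00012, scaled -0.36). The P5 call was lost with the most abundant transcript (adjusted p = 0.111). At E17 it read 2.23, 2.57 and 2.31 against 2.57, 3.09 and 2.54 RPKM, with the groups overlapping (0.15 ± 0.09, adjusted p = 0.172, scaled -0.06).

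The related Arid3b, required for limb and heart development (chromosome 9, 57790353 to 57836793), rose at P5. It stood at 5.47, 5.04 and 4.59 RPKM in wild type against 6.54, 6.94 and 7.06 in the double knockout, without overlap (0.38 ± 0.08, adjusted p = 0.00138, scaled 0.57). Arid5b, which encodes a cofactor of a histone demethylase (chromosome 10, 68092520 to 68278740), was at 11.6, 9.28 and 12.5 RPKM in wild type at P0 against 9.42, 7.67 and 8.17 in the double knockout. It fell, although the highest knockout library exceeded the lowest wild-type one (-0.36 ± 0.11, adjusted p = 0.0219, scaled -0.34). That call was lost in 5 alternative settings, including leaving out wild-type library 1 or 3 or double knockout library 2 or 3 (adjusted p = 0.0738, 0.0893, 0.0569 and 0.0673). Arid4a and Arid4b, which encode partners of the SIN3 deacetylase complex, and Arid5a did not rise or fall at any stage where they were tested. At P0 3 markers of mesenchyme were read, of which 2 fell and 1 rose, against 22.8% and 16.7% of all genes tested. Their sums were 554.0 to 684.3 RPKM in wild type and 1796 to 2734 in the double knockout. The higher sum came from Col1a1, which rose (mean 511 against 2263 RPKM). Col3a1 (-1.09, scaled -1.07) and Prrx1 (-0.96, scaled -0.94) fell. Cdk1, the one cycling marker tested there, fell (-0.91, scaled -0.89), as did the macrophage marker Cd68 (-0.40, scaled -0.38) and, of 2 red cell markers, Hba-a2 (-1.31, scaled -1.29). Their part in the P0 results was not tested.

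**Figure D3:**
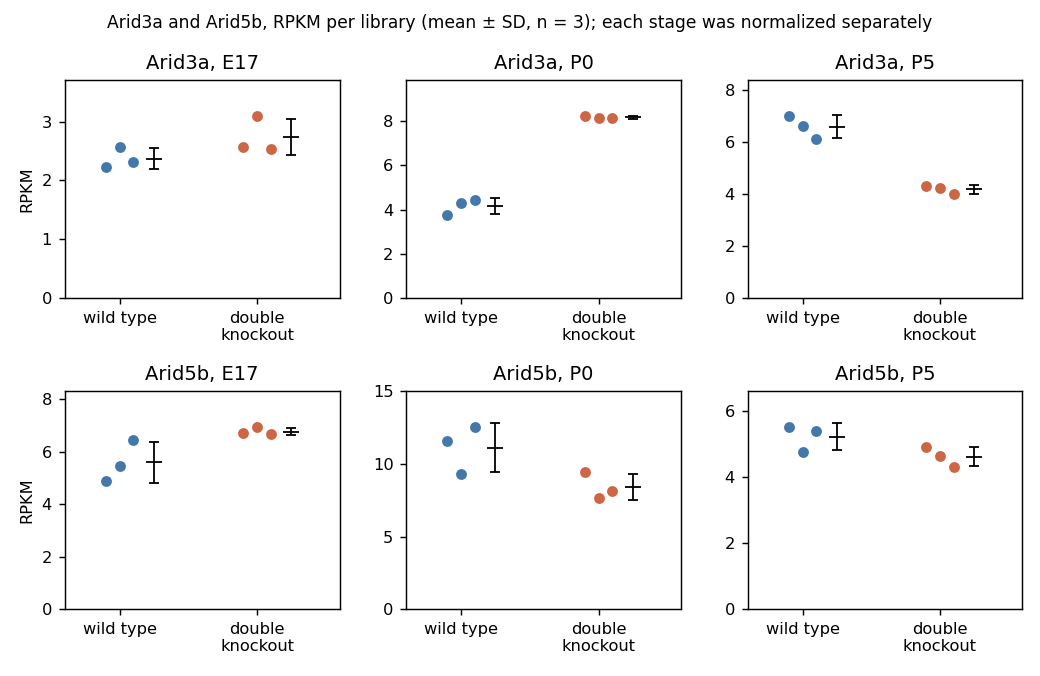
RPKM of Arid3a (top) and Arid5b (bottom) in each library at E17, P0 and P5, with the group mean ± SD (n = 3); the axes of the stages are not comparable, since each stage was normalized separately. Arid3a is higher in the double knockout at P0 and lower at P5 in all 3 libraries, and Arid5b overlaps between genotypes at P0 and P5.

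The other 4 members read at P0 that are remodelling subunits did not pass in both scalings. Smarcb1 was at 44.8, 44.4 and 48.1 RPKM against 41.2, 39.7 and 42.8, lower in each knockout library (-0.15 ± 0.07, adjusted p = 0.0995, scaled -0.13 with adjusted p = 0.0457). Ino80d was at 1.63, 1.81 and 1.90 against 2.66, 2.01 and 2.29 RPKM, higher in each knockout library (0.25 ± 0.10, adjusted p = 0.0739, scaled 0.27 with adjusted p = 0.0415). For both genes only the scaled difference passed. Chd3 (0.13, scaled 0.16) and Smarcc2 (0.03, scaled 0.05) did not pass either way.

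Whether the genotype effect itself changed with age was tested as the difference of 2 log2 fold changes. Between E17 and P5, which share no libraries, the effect became more negative in both scalings in 15 of 39 members, against 27.5% of 11049 genes, and more positive in 2, against 2.61%. The 2 were Chd2 (0.63 ± 0.11, adjusted p = 2.93e-05, scaled 1.09, adjusted p = 4.15e-07) and Ino80d (0.30 ± 0.13, adjusted p = 0.0477, scaled 0.65, adjusted p = 0.000899). The transcripts summed per gene differed between these stages, for Chd2 18 at E17 and 1 at P5. Their part in the differences was not tested. Among the 15, Smarca5 (-1.03 ± 0.09, adjusted p = 3.01e-08, scaled -0.55, adjusted p = 1.63e-05), Ino80e (-1.02 ± 0.11, adjusted p = 3.33e-07, scaled -0.54, adjusted p = 0.000213), Smarcal1 (-0.99 ± 0.11, adjusted p = 3.03e-07, scaled -0.57, adjusted p = 9.62e-05), Chd4 (-0.96 ± 0.11, adjusted p = 5.24e-07, scaled -0.45, adjusted p = 0.000508) and Smarca4 (-0.88 ± 0.11, adjusted p = 1.9e-06, scaled -0.39, adjusted p = 0.00319) had large differences in both scalings. The rest were Smarcb1, Smarcd2, Smarca1, Smarcc1, Pbrm1, Brd7, Brd9, Chd9, Arid3a and Ino80b. Smarcd3, which fell at P5, did not pass this test once scaled (-0.61 ± 0.09, adjusted p = 1.22e-05, scaled -0.14, adjusted p = 0.226). Hells, Arid1b and Arid3b, which rose at P5, passed it only after scaling (deposited adjusted p = 0.0991, 0.18 and 0.264; scaled 0.000235, 0.000413 and 0.00695).

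Tests against P0 could use 8 members or fewer. From E17 to P0 the effect became more positive in 1 of 8, Arid3a (0.69 ± 0.12, adjusted p = 0.000109, scaled 0.91, adjusted p = 5.48e-06), against 7.71% of 2011 genes. It became more negative in 1, Smarcb1 (-0.50 ± 0.10, adjusted p = 0.000331, scaled -0.20, adjusted p = 0.023), against 23.9%. From P0 to P5 it became more negative in 3 of 7, against 31.2% of 1758 genes: Arid3a (-1.38 ± 0.11, adjusted p = 2.07e-09, scaled -1.21, adjusted p = 4.47e-08), Smarcal1 (-0.68 ± 0.12, adjusted p = 6.71e-05, scaled -0.54, adjusted p = 8.15e-05) and Smarcb1 (-0.37 ± 0.09, adjusted p = 0.00132, scaled -0.17, adjusted p = 0.0304). It became more positive in 0 of the 7, against 9.9%. These 3 tests between stages reuse the libraries of each stage. The transcripts summed per gene also differed between P0 and P5, for Smarcal1 9 at P0 and 1 at P5, and their part was not tested.

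**Figure D4:**
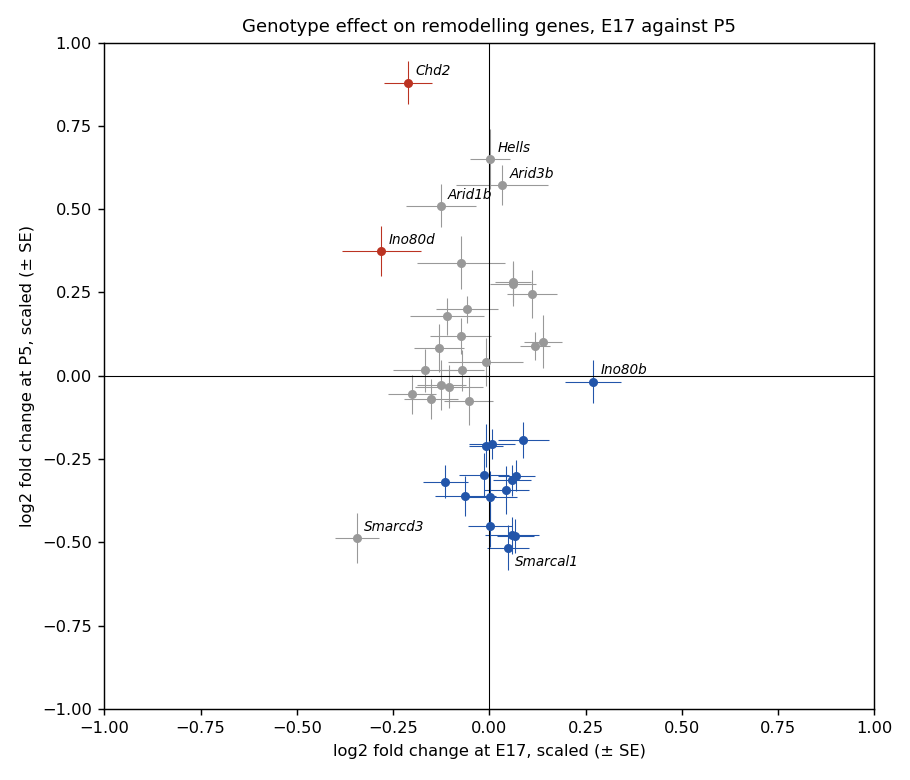
Scaled log2 fold change (double knockout over wild type) of 39 members at P5 (vertical) against E17 (horizontal), with standard errors. Blue and red mark members whose effect became more negative (15) or more positive (2) in both scalings; most points lie within 0.25 of 0 at E17 and spread more widely at P5, from Smarcal1 at the bottom to Chd2 at the top.

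The ratio of paralogues within a library does not depend on the library's scaling and was examined next. The Smarca, Smarcd and Arid1 pairs and Chd3 with Chd4 encode alternative subunits of a complex, whereas the other pairs are related genes that need not stand in for each other. In 12 pairs at P5, 9 had groups that did not overlap, as did 4 of 13 at E17 and 1 of 1 at P0. For single genes rather than ratios, the RPKM of 70.4% (P5), 64.7% (E17) and 50.3% (P0) of all genes tested did not overlap in 1 direction or the other; no such share was computed for ratios. With 3 libraries against 3 the exact permutation test (two-sided) cannot go below p = 0.1, and the 26 ratios had adjusted p of 0.186 or more, so these are descriptions. The NuRD motors gave a clear shift: Chd3/Chd4 was 0.903, 1.03 and 0.971 in wild type at P5 against 1.51, 1.5 and 1.59 in the double knockout, a change of 0.67 ± 0.06 in log2 ratio. About equal in wild type, the 2 genes were thus unequal in the knockout, with Chd3 the higher.

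Arid3b/Arid3a moved furthest, from 0.782, 0.758 and 0.749 to 1.51, 1.64 and 1.77 (1.10 ± 0.07), which changed which of the 2 was the more abundant. Arid1b/Arid1a went from 0.383, 0.397 and 0.374 to 0.527, 0.506 and 0.479 (0.39 ± 0.05), with Arid1a remaining the more abundant. Chd2/Chd1 went from 1.49, 1.55 and 1.39 to 2.19, 2.48 and 2.24 (0.64 ± 0.07). Chd7/Chd8 went from 0.208, 0.203 and 0.189 to 0.288, 0.317 and 0.272 (0.54 ± 0.08). By the RPKM given above, Chd2 was the higher in the knockout while Chd1 overlapped, and Chd8 was the lower while Chd7 overlapped.

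The BAF60 and scaffold subunits shifted as well. Smarcd3/Smarcd1 was 0.601, 0.826 and 0.693 against 0.395, 0.448 and 0.346 (-0.83 ± 0.17), and Smarcd2/Smarcd1 was 1.74, 1.97 and 1.66 against 1.15, 1.27 and 1.13 (-0.60 ± 0.09). Smarcc2/Smarcc1 was 1.92, 1.86 and 1.79 against 2.12, 2.12 and 2.62 (0.30 ± 0.11), from Smarcc2 at 26.3, 22.4 and 21.9 and 19.7, 20.6 and 23.8 RPKM. The share of BAF60 RNA from Smarcd1 was thus higher, and that from the other 2 forms lower, in each knockout library. Brd9/Brd7 was 0.760, 0.766 and 0.727 against 0.656, 0.702 and 0.705 (-0.13 ± 0.04), and its direction was opposite (0.29) when the most abundant transcript of each gene was used in place of the sum. The ratios of the alternative motors, Smarca2/Smarca4 (0.28 ± 0.17) and Smarca1/Smarca5 (0.02 ± 0.09), and Arid4b/Arid4a (-0.13 ± 0.07), overlapped between genotypes.

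At E17 Smarcd3/Smarcd1, uncertain for the overlap with Chpf2, was also lower in the knockout, 1.45, 1.29 and 1.33 against 1.07, 0.874 and 0.971 (-0.48 ± 0.10), from Smarcd3 at 17.7, 17.6 and 16.8 and 16.8, 16.5 and 16.2 RPKM and Smarcd1 at 12.2, 13.7 and 12.6 and 15.7, 18.9 and 16.7. Other E17 ratios went against their P5 direction. Chd2/Chd1 was 1.48, 1.28 and 1.51 against 1.16, 1.21 and 1.07 (-0.31 ± 0.09), from Chd1 at 5.10, 5.58 and 5.32 and 6.46, 6.81 and 7.31 RPKM. Smarcc2/Smarcc1 was 1.27, 1.22 and 1.25 against 1.02, 1.13 and 1.05 (-0.23 ± 0.05), with Smarcc1 at 22.1, 25.6 and 25.3 and 29.9, 32.5 and 32.5 RPKM and Smarcc2 at 28.1, 31.1 and 31.7 and 30.6, 36.6 and 34.2. Arid1b/Arid1a differed by very little, 0.574, 0.568 and 0.565 against 0.560, 0.558 and 0.561 (-0.02 ± 0.01), with Arid1b at 6.84, 8.07 and 8.85 and 8.21, 9.16 and 8.89 RPKM and Arid1a at 11.9, 14.2 and 15.7 and 14.7, 16.4 and 15.8. At P0 Arid5b/Arid5a was 7.21, 7.09 and 7.87 against 6.66, 5.32 and 4.76 (-0.42 ± 0.15), with Arid5a at 1.61, 1.31 and 1.59 and 1.42, 1.44 and 1.72 RPKM. The differences between stages in these ratios were not tested.

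**Figure D5:**
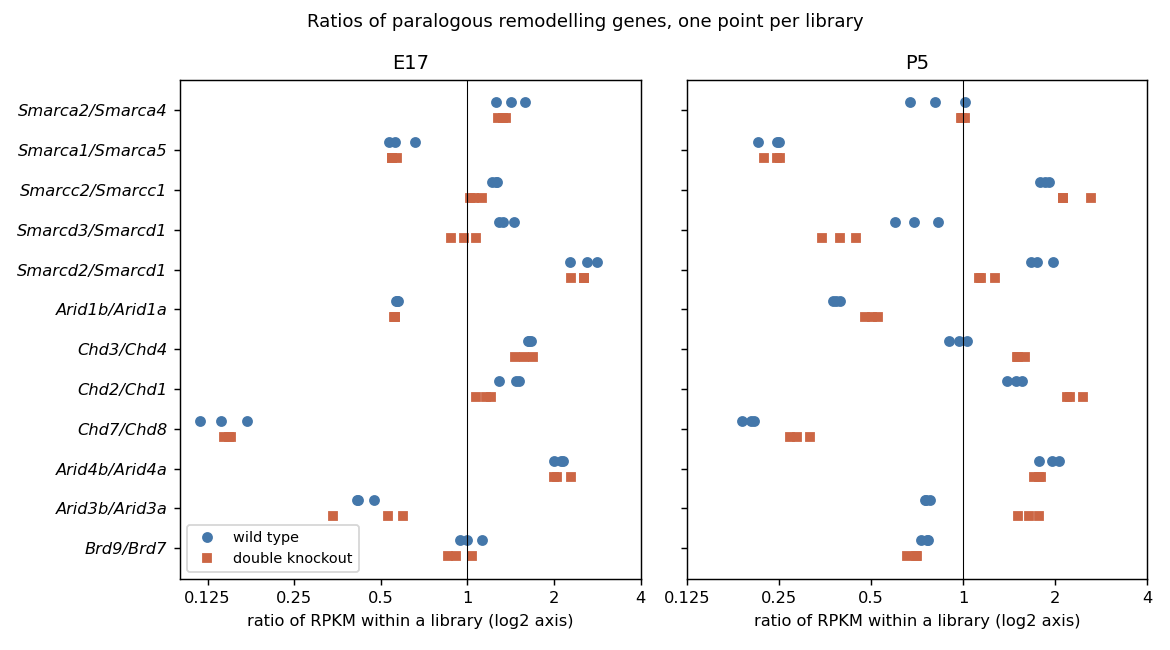
Ratio of the RPKM of paralogous remodelling genes in each library at E17 (left) and P5 (right), on a log2 axis, with wild type as circles and the double knockout as squares. At P5 the squares of Chd3/Chd4, Arid3b/Arid3a, Arid1b/Arid1a, Chd2/Chd1 and Chd7/Chd8 lie to the right of the circles and those of Smarcd3/Smarcd1 and Smarcd2/Smarcd1 to the left.

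Sums over transcripts can hide a switch between them, so the share of the most abundant transcript was read for members with several. The genotypes did not overlap in 7 of 21 such members at P5 (22.4% of 5711 genes with several transcripts), 7 of 40 at E17 (17.6% of 12015) and 2 of 8 at P0 (18.6% of 1850). At P5 the leading transcript of Smarcc2 carried 69.4%, 60.1% and 61.3% of the gene's RPKM in wild type against 76.8%, 74.2% and 74.8% in the double knockout. That of Arid4b carried 96.0%, 95.1% and 91.3% against 79.8%, 83.4% and 86.5%. For Ino80d the share was 44.7%, 38.8% and 53.6% against 57.5%, 56.7% and 61.5%, and for Smarcad1 12.5%, 26.3% and 24.2% against 31.6%, 31.2% and 36.9%. The share was lower in the knockout for Smarca2 (51.9%, 47.4% and 50.1% against 44.6%, 43.9% and 41.3%) and Brd7 (70.5%, 67.5% and 76.0% against 66.3%, 57.3% and 65.4%). The seventh was Smarcd2, whose mean share was 92.7% in wild type and 93.6% in the knockout. At E17 the 7 were Arid1b, Bptf, Chd8, Chd9, Smarca2, Smarca4 and Smarcc2, and at P0 they were Smarcb1 and Smarcc2. In Chd4 at P5 the mean share was 55.2% in both genotypes. Shares of overlapping transcripts are the authors' estimates, and no test was made of them.

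Of 72 listed partner subunits of the same complexes, 25 of 66 tested fell at P5 (37.9%, against 30.8% of all genes) and 2 rose (3.0%, against 7.35%), with a median log2 fold change of -0.23 (scaled -0.03). Among those that fell were Ruvbl1 and Ruvbl2, the AAA+ ATPase ring of INO80 and related complexes (-0.98, scaled -0.78, adjusted p = 3.84e-06, and -0.80, scaled -0.59, adjusted p = 1.7e-05). Baz1b, the Williams syndrome partner of SMARCA5, fell (-1.07, scaled -0.87, adjusted p = 8.79e-06), as did Actr8 (-0.82, scaled -0.62) and Actr6 (-0.89, scaled -0.72), actin-related proteins of INO80 and SRCAP, and Hdac2 (-0.68, scaled -0.46), a deacetylase of NuRD. By complex, 9 of 22 INO80, SRCAP and TIP60 partners fell, 6 of 11 other SNF2-type ATPases and their partners, 4 of 9 ISWI partners, 3 of 10 NuRD partners and 3 of 14 BAF and PBAF partners. Dpf3, a tissue-restricted reader of BAF (0.35, scaled 0.52), and Baz2b (0.28, scaled 0.48) rose.

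At E17 4 of 70 partners rose (against 6.61% of all genes) and 0 fell (against 3.07%): Mta3 and Cdk2ap1 of NuRD (0.51, scaled 0.24, and 0.61, scaled 0.32), Actl6a, the BAF53A subunit of progenitor BAF (0.49, scaled 0.21), and Znhit1 of SRCAP (0.49, scaled 0.21). At P0 9 partners were tested, of which 4 fell and 1 rose, against 22.8% and 16.7% of all genes. Mbd3 of NuRD (-0.41, scaled -0.39), Yeats4 (-0.33, scaled -0.31), Uchl5 (-0.30, scaled -0.28) and Zranb3 (-0.36, scaled -0.34) fell, and Actr6 rose (0.35, scaled 0.37). Actr6 thus rose at P0 and fell at P5, and its effect differed between these stages in both scalings (-1.24 ± 0.14, adjusted p = 2.74e-07, scaled -1.09, adjusted p = 1.84e-06).

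Some markers of other cells also differed between genotypes, and their part in the results above was not tested. Of all genes tested, 30.8% fell and 7.35% rose at P5, and 3.07% fell and 6.61% rose at E17. The sums below are of deposited RPKM and include the general shift, a median log2 fold change of -0.25 at P5 and 0.25 at E17. At P5 the summed RPKM of 8 mesenchyme markers was 1890 to 2098 in wild type and 845.9 to 1202 in the double knockout (3 of 8 fell), that of 6 red cell markers 1348 to 1479 against 516.7 to 1185 (5 of 5 tested fell), that of 4 macrophage markers 13.4 to 15.8 against 7.69 to 9.02 (3 of 4 fell) and that of 4 neuron markers 68.3 to 112.1 against 31.4 to 41.8 (1 of 2 tested fell). Of 4 endothelial markers 1 fell, and 0 of 6 skeletal muscle markers could be tested. The muscle markers summed to 1.34, 1.10 and 1.27 RPKM in wild type against 1.93, 1.27 and 15.4 in the double knockout. The third knockout library thus stood apart. The 6 dental epithelium markers summed to 3640 to 4411 RPKM against 3624 to 3718, and 1 of 6 fell, Epcam (-0.50, scaled -0.28). Most of that sum came from the keratin genes Krt5 (means of 2023 and 1889 RPKM) and Krt14 (1608 and 1505 RPKM). Epithelial RNA was thus present in both genotypes, though the sum says little of the other markers. At E17 mesenchyme markers summed to 4152 to 4535 RPKM in wild type and 2470 to 2682 in the double knockout (4 of 8 fell), red cell markers to 5770 to 7228 against 10410 to 21290 (5 of 6 rose), and dental epithelium markers to 1649 to 1915 against 1962 to 2133 (3 of 6 rose). Neuron markers summed to 8.34 to 8.85 against 29.8 to 32.3 RPKM (2 of 2 tested rose), skeletal muscle markers to 273.2 to 613.1 against 249.6 to 313.7 (4 of 6 fell) and markers of cornifying epithelium to 489.9 to 630.2 against 550.0 to 947.1 (3 of 5 tested rose).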

How the data were processed

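RNA of dispase-separated dental epithelium was depleted of ribosomal RNA and sequenced, per the labels' protocols. Per the submitters' processing notes the authors used Partek on mm10 and deposited 1 value per transcript and library. These deposited values are taken as RPKM, a unit read from the values and stated in no source. For the aligner, the annotation and strand-specific counting the answer is "not given in the sources used here". The transcript names do differ in kind, with a symbol and a number at E17 and P0 and the NM_ names of RefSeq at P5. Smarca2, for one, had 44 transcripts at E17 and 3 at P5. Effects at P5 are thus compared with those of other stages across unlike sets of transcripts.

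RPKM were summed per symbol, genes reaching 1 RPKM in 3 or more of a stage's 6 libraries were tested, and log2(RPKM + 1) was compared with limma 3.58.1 in R 4.3.3 (empirical Bayes with trend, two-sided, Benjamini-Hochberg). Differences between stages used Satterthwaite degrees of freedom. The fits were tested on simulated data. Positions and overlaps are from GENCODE M21 on mm10. Overlaps count all exons of a gene there, not those of the transcripts valued at a stage. The precision of each value is limited by 3 libraries a group and by depth, which the deposited RPKM do not carry as counts.

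The members, the partner lists and the tests were chosen with earlier results of these data known. By the naming rule, every member is named, members that rose or fell, Smarca4, Chd4, Hells, Atrx and pairs with shifted ratios are given per library, and at most 6 partners a stage with the smallest p are named. The partner Cdca7 and the overlapping genes Chpf2, Hirip3 and 1810026B05Rik, and partners named beyond 6, were added after their values were seen. Alternatives were median-of-ratios scaling, no filter, a pseudocount of 0.1, no trend, the replicate block, each library left out, the most abundant transcript, and either scaling alone.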

Additional observations from a re-analysis of the deposited data

Results flagged for a closer look

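The genotype effect of 17 members differed between E17 and P5 in both scalings by a test of the difference of log2 fold changes, with limma fits and Benjamini-Hochberg adjustment over all genes. Of all 11049 genes tested, the effect became more negative in 27.5% and more positive in 2.61%. As deposited, the effect at P5 minus that at E17 was -1.03 for Smarca5, -1.02 for Ino80e, -0.99 for Smarcal1, -0.96 for Chd4, -0.88 for Smarca4, -0.87 for Smarcb1, -0.87 for Smarcd2, -0.80 for Smarca1, -0.78 for Ino80b, -0.77 for Smarcc1, -0.76 for Pbrm1, -0.70 for Brd7, -0.70 for Arid3a, -0.69 for Brd9 and -0.67 for Chd9. It was positive for Chd2 (0.63) and Ino80d (0.30). The median difference over all genes was -0.52, so these values are to be read against that shift. After scaling that median was -0.07, and the negative differences were smaller, such as -0.39 for Smarca4 and -0.28 for Smarcc1. The positive ones were larger, 1.09 for Chd2 and 0.65 for Ino80d. Between E17 and P0 the effect differed for Arid3a (0.69) and Smarcb1 (-0.50), and between P0 and P5 for Arid3a (-1.38), Smarcal1 (-0.68) and Smarcb1 (-0.37).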

How the results depend on the processing

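Of the 23 calls of a member at a stage, 18 held with each library left out in turn and 14 under every alternative run. Using the most abundant transcript in place of the sum lost Arid3a, Brd9, Pbrm1 and Smarcb1 at P5. At E17 the number of risen members was 0 without the trend, with the replicate block and with the most abundant transcript. It was 0 to 1 with a library left out, and 22 of 40 with the deposited values alone (against 56.3% of all genes tested). The number fallen was 1 with scaled values alone. At P0 the number risen was 2 without the trend, 2 with scaled values alone, 1 to 2 with a library left out and 0 without the ARID3, ARID4 and ARID5 genes (chosen after seeing the data). The number fallen at P0 was 0 without the filter, 2 with scaled values alone, 0 to 1 with a library left out and 0 without those ARID genes. At P5 the number risen was 11 with scaled values alone and 4 to 6 with a library left out, and 13 to 15 fell with a library left out. For the counts with scaled values alone, at each stage, no share of all genes is given here. They therefore cannot be read as a result about the members. Between deposited and scaled values the direction differed in 20 of 40 members at E17, 0 of 8 at P0 and 9 of 39 at P5, none of them called; Atrx at E17 (-0.20 scaled) is 1 of the 20. The direction was also reversed for the Brd9/Brd7 ratio at P5 with the most abundant transcript (0.29). The cause was not tested in any of these. The deviations of same-numbered libraries of the 2 genotypes correlated at -0.22 to 0.27, and those of other-numbered ones reached 0.52. With 3 libraries a group, these correlations cannot tell whether the numbers pair the samples. With the replicate block, 4 members rose and 14 fell at P5, 1 rose and 1 fell at P0, and 0 rose at E17. The deposited values carry no counts, so depth sets no interval here.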
